A study of Mus musculus with 16 samples.

Results

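Nicotinamide riboside (NR) was given to mice with sham-operated hearts, and its effect on heart RNA was read by comparing Vehicle SHAM with NR SHAM. The comparison used 7 of the 16 libraries of the series, 3 from Vehicle SHAM and 4 from NR SHAM, and it was taken from the authors' deposited table of those groups. Genes were kept when the mean of both group means was at least 50 normalized counts, which left 12389 of 19917 genes. The effect of a gene was log2((NR SHAM + 1)/(Vehicle SHAM + 1)), so a positive value is a higher mean in the NR hearts. A normalized count is a read count divided by a size factor for library depth.

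The study measured total RNA from mouse hearts after sham surgery or TAC, transverse aortic constriction, each with vehicle or NR. Sham surgery opens the chest without narrowing the aorta, so these hearts carry no pressure overload. Strain, sex, age, and the dose, route and duration of NR are not given in the sources used here, nor are the hour of sampling and the part of the heart taken. Each group mean was deposited without its libraries, so whether single libraries of the groups overlapped could not be seen, and the spread between libraries enters only through the authors' p-values.

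NR is a form of vitamin B3. Cells take it up and NR kinases, Nmrk1 and Nmrk2, phosphorylate it to nicotinamide mononucleotide, which the Nmnat enzymes turn into NAD. NAD carries electrons from fuel oxidation to the respiratory chain, and it is consumed as a substrate by sirtuins, by PARPs and by the glycohydrolases Cd38 and Bst1. The heart recovers most of the nicotinamide that these enzymes release through Nampt. The series title names raised NAD, short-chain dehydrogenases/reductases and heart failure, and the sham groups hold the treatment without the overload.

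No gene passed in the SHAM comparison. Of 19917 genes, 0 had a call in the authors' deposited table, a DESeq adjusted p below 0.05 (0% called), and the smallest adjusted p was 1. An unadjusted p below 0.05 was held by 374 genes, and by 237 of the 12389 genes with a mean of at least 50. These were 1.88% and 1.91% of the genes, less than the fraction of 0.05 that evenly spread p-values would give. The median unadjusted DESeq p of the 12389 genes was 0.618. Of these 237, 81 had a higher mean with NR (0.654% of the genes) and 156 a lower one (1.26%), so 65.8% lay on the lower side, against 50.3% of all 12389 genes. Most effects were small: the quartiles were −0.086 and 0.075, and 88.5% of genes lay within 0.25 of 0. A difference of at least 2-fold was found in 12 genes on the higher side (0.0969%) and 21 on the lower (0.17%). Everything that follows describes means and unadjusted p-values of a comparison without called genes, and the lists below are given by counts and medians.

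The share of genes at an unadjusted p below 0.05 was larger at low levels. It was 3.11% for means of 50 to 200, 2.00% for 200 to 1000, 1.29% for 1000 to 5000 and 0.659% above. The standard error implied by the authors' p, the effect divided by the normal quantile of p, had a median of 0.265 in the lowest of these bins and 0.114 in the highest. The mitochondrial genome held 37.0% of all normalized counts in Vehicle SHAM and 37.5% in NR SHAM.

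**Figure D1:**
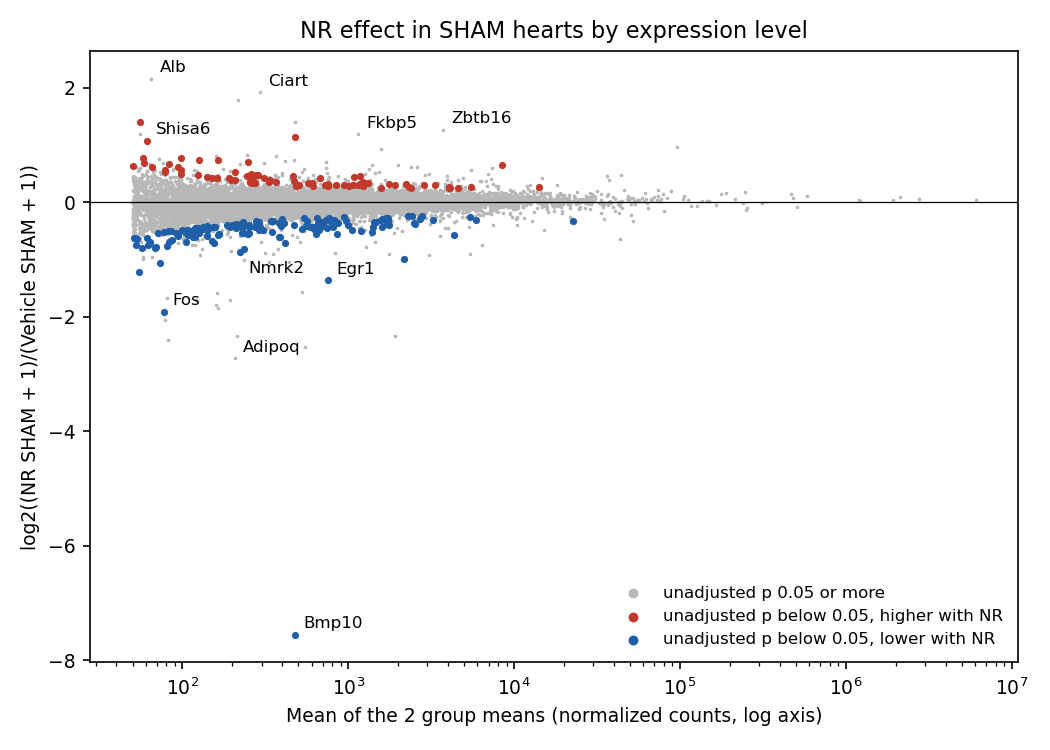
Effect of NR in sham hearts, log2((NR SHAM + 1)/(Vehicle SHAM + 1)), against the mean of both group means in normalized counts on a log axis, 1 point per gene with a mean of at least 50. Red and blue points are the 81 and 156 genes with an unadjusted p below 0.05, higher and lower with NR; Bmp10 at −7.55 and Alb at 2.16 are the extremes.

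On the higher side, the gene with the smallest p was Shisa6, an auxiliary protein of AMPA-type glutamate receptors, on chromosome 11 from 66211725 to 66525964 of GRCm38. Its authors' mean was 39.1 normalized counts in Vehicle SHAM and 83.3 in NR SHAM, a log2 effect of 1.07 with an implied SE of 0.30 (unadjusted DESeq p 0.000396 in the authors' deposited table). Kcnv2, a silent potassium channel subunit that modifies Kv2 channels, had means of 574 and 769.6 (effect 0.42, implied SE 0.14; unadjusted DESeq p 0.00243 in the authors' deposited table). The anoctamin gene Ano10 had means of 2567 and 3156 (0.30). Ube2e2, a ubiquitin-conjugating enzyme, stood at 227 and 313, and Cd28, the T cell costimulatory receptor, at 265 and 358. The other genes of the 8 with the smallest p were Stum (0.45), the zinc finger gene Zfp46 (0.31) and Mir22hg, the host transcript of miR-22 (0.49). Of these 8, 7 had effects of at most 0.49.

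On the lower side the smallest p belonged to Ier2, an immediate early gene on chromosome 8 from 84661331 to 84662852 of GRCm38, with authors' means of 469.9 in Vehicle SHAM and 307 in NR SHAM. Its effect was −0.61 with an implied SE of 0.18 (unadjusted DESeq p 0.000504 in the authors' deposited table). Egr1 and Snai1 came next and are described with the immediate early genes. Cmklr1, the receptor of the adipokine chemerin, had means of 613 and 443 (−0.47), and Asb4, a substrate adaptor of ubiquitin ligases, of 299 and 169.7 (−0.81). Anxa2, a calcium-dependent membrane-binding protein, stood at 1989 and 1514 (−0.39), Trim47, a ubiquitin ligase of the tripartite motif family, at 703 and 523 (−0.43), and the alpha-tubulin gene Tuba1c at 924 and 684 (−0.43).

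The largest effects were mostly other genes. On the higher side they were Alb (albumin), Ciart (a circadian repressor), Cyp26b1 (an enzyme that degrades retinoic acid), Klk1b26 (a kallikrein), Atcay, Nr4a3 (an orphan nuclear receptor), Zbtb16 (a zinc finger transcription factor) and Fkbp5 (a cochaperone of the glucocorticoid receptor). Cyp26b1 had means of 97.3 and 338 (1.78) with an implied SE of 1.76, nearly as large as the effect itself. Atcay, at 30.1 and 81.2, was the only one of these 8 with an unadjusted p below 0.05 (DESeq p 0.0168 in the authors' deposited table). On the lower side they were Bmp10, an atrial growth factor of the heart; Adipoq, Cfd, Car3 and Cidec, which adipocytes express; Glb1l2; Fos; and Pck1, the enzyme that commits carbon to gluconeogenesis and glyceroneogenesis. Pck1 had means of 258 and 70.9 (−1.85) and Glb1l2 of 137 and 25.2 (−2.40). Only Bmp10 and Fos of these 8 had an unadjusted p below 0.05.

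Immediate early genes leaned lower with NR. They are transcribed within minutes of a stimulus without new protein synthesis, and many encode transcription factors. Of 32 members with a mean of at least 50, 24 had a negative effect, and 8 had a lower mean at an unadjusted p below 0.05, beside the 1.26% of all genes given above; none had a higher mean at that p. The list median was −0.30, beside −0.00092 for all 12389 genes. Egr1, a zinc finger transcription factor, had authors' means of 1092 in Vehicle SHAM and 424 in NR SHAM, an effect of −1.36 with an implied SE of 0.41 (unadjusted DESeq p 0.000864 in the authors' deposited table). Fos, the partner of Jun in the AP-1 dimer, had means of 122 and 31.8, an effect of −1.91 with an implied SE of 0.73 (unadjusted DESeq p 0.00868 in the authors' deposited table). Snai1, a repressor known for epithelial-to-mesenchymal transition, stood at 193 and 118 (−0.71), and Myc at 130.2 and 80.0 (−0.70). Klf4, a Krüppel-like factor of vascular cells, stood at 1633 and 1138 (−0.52). The other members at that p, named after their values were seen, were Junb (−0.56) and Maff (−0.38).

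By role, EGR factors and their corepressors had a median effect of −0.59 over 3 genes, AP-1 factors of −0.36 over 6, the KLF and orphan receptor genes of −0.18 over 7, and the feedback regulators and others of −0.30 over 16; no difference between roles was tested. Nr4a3 ran the other way, with means of 263 and 693 (effect 1.39, implied SE 1.47), while its family member Nr4a1 stood at 631 and 391 (−0.69). Atf3, a stress-induced AP-1 partner, had means of 319.7 and 376. Nr4a1 and Atf3 were named after their values were seen.

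**Figure D2:**
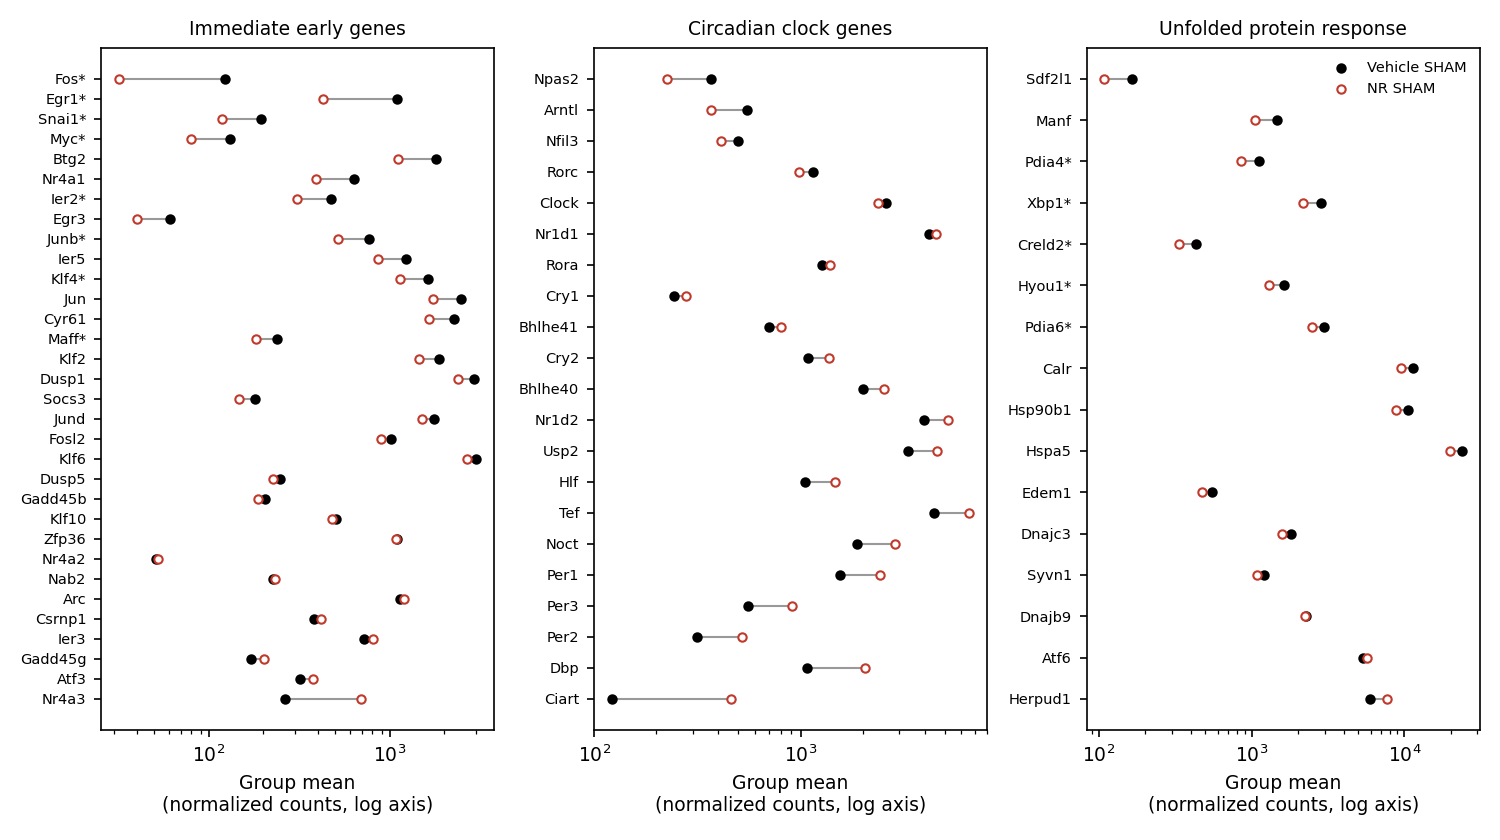
Authors' group means in normalized counts (log axis) of every member with a mean of at least 50 among immediate early genes, circadian clock genes and unfolded protein response genes, Vehicle SHAM as filled and NR SHAM as open circles. Gene names with * had an unadjusted p below 0.05; these are 8 early genes, 0 clock genes and 5 unfolded protein response genes, and each of them lies lower with NR.

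The unfolded protein response raises chaperones and folding enzymes of the endoplasmic reticulum when unfolded proteins gather there. Of its 16 genes, 14 had a negative effect, the median was −0.26, and 5 had a lower mean at an unadjusted p below 0.05, beside 1.26% of all genes. Xbp1, the transcription factor that the sensor Ire1 activates by splicing, had authors' means of 2845 and 2186, an effect of −0.38 with an implied SE of 0.14 (unadjusted DESeq p 0.00855 in the authors' deposited table). Hyou1, a chaperone of the reticulum, stood at 1642 and 1292 (−0.35). The disulfide isomerases Pdia4 and Pdia6 stood at 1125 and 852 (−0.40) and at 2995 and 2492 (−0.27). Creld2, a secreted target of the response, had means of 431 and 333 (−0.37), and Sdf2l1 of 165 and 109 (−0.59) without reaching that p. The master chaperone Hspa5 had means of 23719 and 19842 (−0.26), and Herpud1, of the degradation arm, was the highest member at 5938 and 7651 (0.37); both were named after their values were seen. The integrated stress response, the Atf4 branch, had 9 negative of 12, a median of −0.10 and 0 members at that p.

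Promoters of the folding genes hold a known element of this response, so the windows of 2 members are printed. The endoplasmic reticulum stress element was searched as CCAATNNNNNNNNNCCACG on both strands, from 250 bases before to 50 after each start in RefSeq's GRCm38.p6 table, where 13 of the 16 genes had an entry. It was found in 7 of these 13 (53.8%), against 0.151% of the 9284 genes that reach the minimum mean and have a window. All 7 had a negative effect, but so did most of the others, and a match describes letters, not use. Capitals mark the element, which in Creld2 reads on the opposite strand and starts 126 bases before the start; in Pdia6 it begins 98 bases before it. The windows are chr15:88819396-88819695, plus strand, for Creld2, and chr12:17266339-17266638, plus strand, for Pdia6, printed 5′ to 3′.
Creld2: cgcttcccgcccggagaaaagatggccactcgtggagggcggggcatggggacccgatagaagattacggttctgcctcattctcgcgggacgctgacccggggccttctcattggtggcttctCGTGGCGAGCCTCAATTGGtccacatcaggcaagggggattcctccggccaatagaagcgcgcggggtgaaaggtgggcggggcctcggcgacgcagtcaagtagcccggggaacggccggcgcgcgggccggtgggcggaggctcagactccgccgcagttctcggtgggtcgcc
Pdia6: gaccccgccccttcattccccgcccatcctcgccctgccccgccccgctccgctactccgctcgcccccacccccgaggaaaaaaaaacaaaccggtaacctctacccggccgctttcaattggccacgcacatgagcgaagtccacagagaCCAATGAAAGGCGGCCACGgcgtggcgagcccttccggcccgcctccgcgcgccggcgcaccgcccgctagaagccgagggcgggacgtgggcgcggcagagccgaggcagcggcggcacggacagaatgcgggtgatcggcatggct

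Heat shock genes, the chaperones of the cytosol, leaned the same way with smaller values. Of 21 members 19 had a negative effect, the median was −0.095, and 2 had a lower mean at an unadjusted p below 0.05 (all genes 1.26%). Hsph1, an HSP110 exchange factor, had means of 1624 and 1205 (−0.43), and Hspa1b, an inducible HSP70 gene, of 77.4 and 32.6 (−1.22; unadjusted DESeq p 0.0345 in the authors' deposited table). Hspa1b and Hspa1a are near-identical copies, so reads between them may be split uncertainly. The HSP70 and HSP90 genes had 7 negative of 7 and a median of −0.29, while the mitochondrial chaperonin Hspd1, named after its value was seen, stood at 10418 and 10543. The heat shock element GAANNTTCNNGAA was present in 4 of 16 promoters with an entry (25%), against 0.614% of the 9284 genes.

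Interferon-stimulated genes are switched on in cells whose interferon receptors have been engaged, and many of their products block the growth of viruses. In NR SHAM hearts 40 of 44 members had a negative effect, with a median of −0.22; 3 had a lower and 1 a higher mean at an unadjusted p below 0.05, where all genes had 1.26% and 0.654%. Bst2, tetherin, which holds budding virus at the cell surface, had authors' means of 287 in Vehicle SHAM and 218 in NR SHAM, an effect of −0.39 with an implied SE of 0.17 (unadjusted DESeq p 0.0232 in the authors' deposited table). Rtp4 stood at 196 and 131 (−0.57), and Gbp5, a guanylate-binding protein of inflammasome activation, at 221 and 163 (−0.44). Oasl2 stood at 235 and 179 (−0.39) just outside that p. The lowest effect was that of Ifit1, which binds foreign RNA caps: its means were 167 and 88.3 (−0.91), with an implied SE of 0.63, and it was named after its value was seen.

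By role, the 17 antiviral effectors had a median of −0.34, the 7 transcription factors and sensors of −0.22 with all 7 negative, and the 9 antigen processing genes of −0.13 with all 9 negative. The guanylate-binding proteins and related GTPases were divided. Gbp6 had means of 188 and 307 (0.71, implied SE 0.33; unadjusted DESeq p 0.0328 in the authors' deposited table), and the GTPase Iigp1 of 2422 and 2941 (0.28). Gbp10, named after its values were seen, had means of 28.2 and 69.8, just under the minimum mean of 50, and the smallest p of the whole table (unadjusted DESeq p 5.37e-05 in the authors' deposited table). Gbp6 and Gbp10 are close copies, so reads between them may be split uncertainly. Of 8 Gbp genes at or above the minimum mean, the other 7 had negative effects, from −0.53 in Gbp3 to −0.083 in Gbp9.

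The interferon-stimulated response element was searched as GAAANNGAAA on both strands of the same windows. It was present in 17 of 35 interferon genes with an entry (48.6%), against 3.49% of the 9284 genes and 3.99% of all 27025 genes with a window. Genes with the element had a median effect of −0.26 and those without it of −0.17, with 16 of 17 and 17 of 18 negative. The windows of Ifit1 and Bst2 are printed because they hold 2 matches each: at 104 and 85 bases before the start in Ifit1, both on the opposite strand, and at 130 and 124 in Bst2, where the matches overlap each other in the capitals. They are chr19:34640639-34640938, plus strand, for Ifit1, and chr8:71537423-71537722, minus strand, for Bst2, from RefSeq's GRCm38.p6, 5′ to 3′.
Ifit1: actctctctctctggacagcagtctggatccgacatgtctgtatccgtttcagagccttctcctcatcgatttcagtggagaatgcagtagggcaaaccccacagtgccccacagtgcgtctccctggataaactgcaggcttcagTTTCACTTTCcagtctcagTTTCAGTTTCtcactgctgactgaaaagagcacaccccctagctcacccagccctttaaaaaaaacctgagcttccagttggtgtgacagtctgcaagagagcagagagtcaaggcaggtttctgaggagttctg
Bst2: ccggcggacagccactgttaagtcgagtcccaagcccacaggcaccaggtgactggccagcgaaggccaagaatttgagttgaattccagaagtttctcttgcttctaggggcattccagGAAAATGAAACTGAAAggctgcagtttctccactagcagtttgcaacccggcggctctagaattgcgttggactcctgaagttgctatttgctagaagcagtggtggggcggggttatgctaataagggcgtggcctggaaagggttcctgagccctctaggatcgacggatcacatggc

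**Figure D3:**
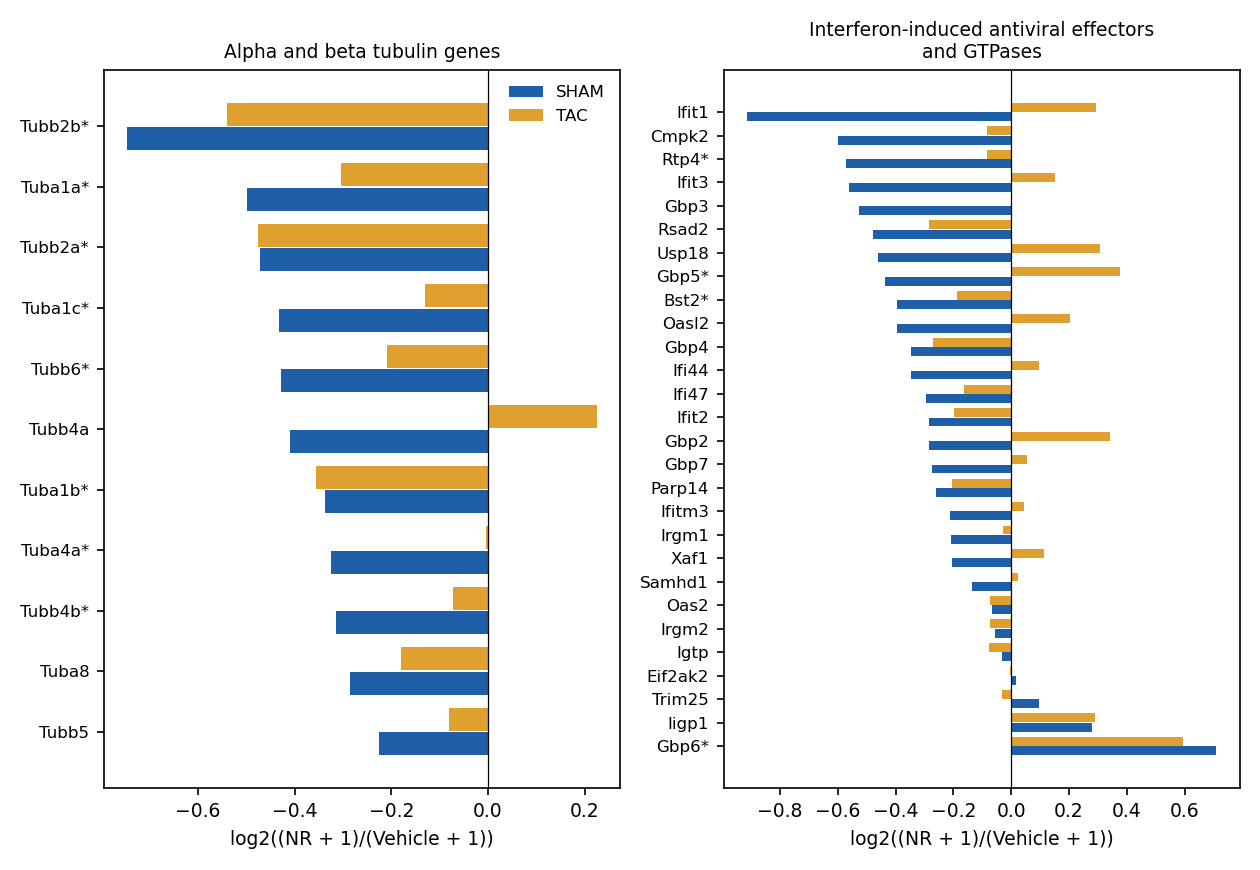
Effect of NR, log2((NR + 1)/(Vehicle + 1)), of each alpha- and beta-tubulin gene and each interferon-induced antiviral effector or GTPase gene with a mean of at least 50, in SHAM (blue) and TAC (orange) hearts; * marks an unadjusted p below 0.05 in SHAM. All 11 tubulin bars, 15 of 17 antiviral effectors and 9 of 11 GTPases lie below 0 in SHAM, and Gbp6 at 0.71 is the highest interferon gene.

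Circadian clock genes showed an ordered pattern of signs without any member at an unadjusted p below 0.05. In the clock, Arntl with Clock or Npas2 activates the Per, Cry and Rev-erb genes, which repress their activators, and output factors carry the rhythm to other genes. All 10 repressors had a positive effect (median 0.36), 5 of 6 output factors did (0.52), and 4 of 5 activators had a negative one (−0.22). Ciart, which represses the Arntl and Clock dimer, had authors' means of 121 in Vehicle SHAM and 461 in NR SHAM, an effect of 1.92 with an implied SE of 1.16 (unadjusted DESeq p 0.0973 in the authors' deposited table). Per3 stood at 557 and 907 (0.70). Dbp, an output factor of the PAR bZIP family, had means of 1079 and 2060.0 (0.93, implied SE 0.49), its relative Tef of 4442 and 6556 (0.56), and Usp2 of 3300.5 and 4557 (0.47). Among activators, Npas2 had means of 367 and 226 (−0.70) and Arntl, named after its value was seen, of 551 and 369 (−0.57). Nfil3, which represses the sites that Dbp activates, was the 1 output factor below 0, at −0.27.

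Clock promoters were searched for the E-box CACGTG, which the Arntl dimers bind, and the D-box TTATGNAA of the Dbp family, on both strands. The E-box was present in 4 of 8 repressor promoters with an entry and in 5 of 18 clock genes (27.8%), against 11.8% of the 9284 genes, and the D-box in 3 of 18 (16.7%), against 2.46%. The E-box share was not particular to clock genes: it was 24% in immediate early, 22.2% in tubulin and 18.8% in heat shock genes. It was 12% in unfolded protein and integrated stress, 5.71% in interferon and 3.03% in matrix genes. Ciart holds 3 E-boxes, at 116, 58 and 44 bases before the start, and Per3 holds 2 D-boxes, at 205 and 158, marked in capitals. The windows are chr3:95882179-95882478, minus strand, for Ciart, and chr4:151044616-151044915, minus strand, for Per3, from RefSeq's GRCm38.p6, 5′ to 3′.
Ciart: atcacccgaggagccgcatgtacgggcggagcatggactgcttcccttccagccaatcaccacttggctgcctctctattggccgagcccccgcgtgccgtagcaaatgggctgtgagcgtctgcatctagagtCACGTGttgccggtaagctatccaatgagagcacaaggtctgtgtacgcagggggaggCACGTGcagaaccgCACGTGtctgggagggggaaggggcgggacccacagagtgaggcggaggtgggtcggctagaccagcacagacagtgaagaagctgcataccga
Per3: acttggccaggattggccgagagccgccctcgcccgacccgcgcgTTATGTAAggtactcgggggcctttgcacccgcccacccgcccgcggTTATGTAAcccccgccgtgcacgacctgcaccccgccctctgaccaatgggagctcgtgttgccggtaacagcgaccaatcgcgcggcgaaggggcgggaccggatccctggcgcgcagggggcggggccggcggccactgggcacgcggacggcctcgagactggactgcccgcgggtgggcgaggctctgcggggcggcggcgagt

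Genes of the glucocorticoid and fasting response were mixed, with 13 positive of 20, a median of 0.12 and 0 at an unadjusted p below 0.05. Fkbp5 had authors' means of 691 and 1584 (1.19, implied SE 1.06), and Zbtb16 of 2184 and 5263 (1.27, implied SE 1.29). Per1, which belongs to both this list and the clock, stood at 1552 and 2427 (0.64). Of the other members, Sgk1, a kinase, had means of 1380.3 and 1224 (−0.17), and Tsc22d3, named after its value was seen, of 2680.3 and 2672. Both lay at or below 0, whereas 13 of the 20 members were positive. Angptl4, an inhibitor of lipoprotein lipase, ran lower at 252 and 139 (−0.85).

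Tubulin genes, a family picked after its values were seen, had lower means throughout. Alpha- and beta-tubulins pair to form microtubules. All 11 alpha- and beta-tubulin genes at or above the minimum mean had a negative effect, from −0.75 in Tubb2b to −0.22 in Tubb5, with a median of −0.41, and 8 were lower at an unadjusted p below 0.05 (all genes 1.26%). Tubb2b had authors' means of 77.8 and 46.0, Tubb6 of 669.7 and 497, and Tubb2a of 719 and 518. Tuba4a had means of 25292 and 20206, an effect of −0.32 with an implied SE of 0.11 (unadjusted DESeq p 0.00395 in the authors' deposited table). Tuba1a, Tuba1b and Tuba1c are close copies that may share reads, so their values are not independent. Because the family was chosen for these values, its counts are a description.

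Genes of the extracellular matrix leaned lower, with 48 negative of 51 and a median of −0.24. The 15 collagens on the list, which does not hold every collagen gene, were all negative (median −0.29), as were the 16 matricellular and elastic genes (−0.25) and the 8 proteoglycans (−0.23). Of the 51, 2 had a lower mean at an unadjusted p below 0.05 (all genes 1.26%), Serpinh1 and P4ha1. Serpinh1, the collagen chaperone HSP47, had authors' means of 5159 and 3486, an effect of −0.57 with an implied SE of 0.23 (unadjusted DESeq p 0.013 in the authors' deposited table). P4ha1, a collagen prolyl hydroxylase, stood at 1835 and 1363 (−0.43). Fbn1, the microfibril protein fibrillin, had means of 2054 and 1635 (−0.33), Sparc of 12610.0 and 10436 (−0.27), and Col15a1 of 2954 and 2325 (−0.35). Col5a3, a collagen outside the list and named after its value was seen, had means of 864 and 631 (−0.45; unadjusted DESeq p 0.0256 in the authors' deposited table).

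Fibroblast markers lay on the same side as the matrix genes: 15 of 15 were negative, with a median of −0.17, 0 at an unadjusted p below 0.05 and a summed level of 110026 normalized counts in Vehicle SHAM and 97970 in NR SHAM. Col1a1 is in both lists, and the fibroblast list holds further genes of matrix proteins and enzymes, among them Dcn, Lum, Dpt and Mmp2. The lists are therefore not independent. Mesothelium markers, of the outer lining of the heart, were negative in 9 of 9 with a mean of at least 50 (median −0.53), and their sum was 2332 and 1745; Wt1, a transcription factor of the epicardium, had means of 273 and 187 (−0.54). No marker of either list was at 0 in a group. In bulk tissue fewer cells of a type and less RNA per cell cannot be told apart. The part of these cells in the matrix values was not tested.

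Cell cycle genes were scarce. Only 12 of 30 reached a mean of 50, of which 11 were negative (median −0.31) and 3 had a lower mean at an unadjusted p below 0.05, against 1.26% of all genes. Mki67, a marker of dividing cells, had authors' means of 143 and 93.6 (−0.61), and the replication helicase subunits Mcm6 of 88.4 and 50.8 (−0.79) and Mcm2 of 263 and 198 (−0.41). Among inflammation genes, 12 of 14 were negative and 2 were lower at that p, with the same share over all genes: Ccl2, which draws monocytes, had means of 99.2 and 47.3 (−1.05; unadjusted DESeq p 0.00839 in the authors' deposited table), and Icam1, a leukocyte adhesion molecule, of 337 and 249.9 (−0.43). Of 20 angiogenic genes, Angpt2, an antagonist ligand of the receptor Tek, had means of 336 and 239 (−0.49) and Nrp2, a coreceptor for VEGF, of 2813 and 2180.4 (−0.37), with 13 negative and a median of −0.090. Macrophage markers were negative in 15 of 17 (median −0.086, sum 11670 and 10936), with Timd4, a marker of resident macrophages, at 63.9 and 41.1 (−0.63). Endothelial markers had 11 negative of 15 and a median of −0.037.

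Among lists with at least 5 members at the minimum mean, atrial and mesothelium markers had the lowest medians. Bmp10, made by atrial and not ventricular muscle in the adult heart, maps to GRCm38 chromosome 6, 87428994 to 87437677, and had authors' means of 949 in Vehicle SHAM and 4.06 in NR SHAM (−7.55, implied SE 3.76; unadjusted DESeq p 0.0447 in the authors' deposited table). All 13 atrial markers with a mean of at least 50 were negative, with a median of −0.59, and the summed level was 17476 in Vehicle SHAM and 10357 in NR SHAM. Sln, a regulator of the calcium pump in atria, had means of 788 and 264 (−1.57), Sbk3 of 588 and 283 (−1.05), and Nr2f1 of 96.8 and 67.7 (−0.51). Ventricular and common cardiomyocyte markers, by contrast, had 5 positive of 10 and a median of 0.0058: Myh6 stood at 562933 and 605265, and Myl2 at 263069 and 245452.

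Adipocyte markers were negative in 11 of 12, with a median of −0.32, which was −1.02 with a minimum mean of 10, and summed levels of 25417 and 22214. The adipokine Adipoq had authors' means of 359.7 and 53.8 (−2.72, implied SE 1.79), Cfd, adipsin, of 929 and 159.7 (−2.53), the lipid droplet protein Cidec of 357 and 69.7 (−2.34), and Car3, a carbonic anhydrase of fat and muscle, of 3173 and 625 (−2.34). Dgat2, a triglyceride-forming enzyme that muscle also expresses, was the exception at 6639 and 8286 (0.32). The summed levels hold Dgat2 and also Fabp4, which is on the endothelial list too, so they do not describe adipocytes alone. Most hepatocyte markers were low: 5 of the 21 in the table reached a mean of 50. Without a minimum mean, 18 of the 21 had a positive effect and 3 a negative one, with a median of 1.53. Alb had means of 23.1 and 107 (2.16). Among the negative members, Hp had means of 242 and 80.3 (−1.58) and Cyp2e1 of 459 and 244 (−0.91). The list sum, which holds both, was 1115 in Vehicle SHAM and 1038 in NR SHAM. No adipocyte, atrial or hepatocyte marker counted here was listed at 0 in either group, and their part in the other results was not tested.

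Genes of cardiac stress had 12 negative of 15 and a median of −0.24, and 1 had an unadjusted p below 0.05. That gene was Nmrk2, the muscle NR kinase, which the stressed heart raises: its authors' means were 288 in Vehicle SHAM and 158 in NR SHAM, an effect of −0.87 with an implied SE of 0.36 (unadjusted DESeq p 0.0165 in the authors' deposited table). The natriuretic peptide genes Nppa and Nppb stood at 4292 and 2849 (−0.59, implied SE 0.44) and at 8013 and 4792 (−0.74, implied SE 0.99). Nppa is also an atrial marker. Myh7, the slow myosin heavy chain that overload raises, stood at 23281 and 23386 (0.0065). Rcan1, a target of calcineurin, had means of 3957 and 3185 (−0.31), and Fhl1 of 7197 and 8017 (0.16).

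Contraction and calcium handling genes differed little as a group, with 18 positive of 34 and a median of 0.018. Mylk4, a myosin light chain kinase of striated muscle, had authors' means of 6594 and 10352, an effect of 0.65 with an implied SE of 0.32 (unadjusted DESeq p 0.0407 in the authors' deposited table). The calcium pump Atp2a2 stood at 443906 and 491043 (0.15), its inhibitor Pln at 75190.4 and 82550.5 (0.13), and the exchanger Slc8a1 at 7392 and 8632 (0.22). Potassium channel genes were positive in 12 of 15 (median 0.077), led by Kcnv2, with Kcnj2, the inward rectifier, at 2443 and 2892 (0.24). Sodium channel and junction genes had 9 positive of 15.

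**Figure D4:**
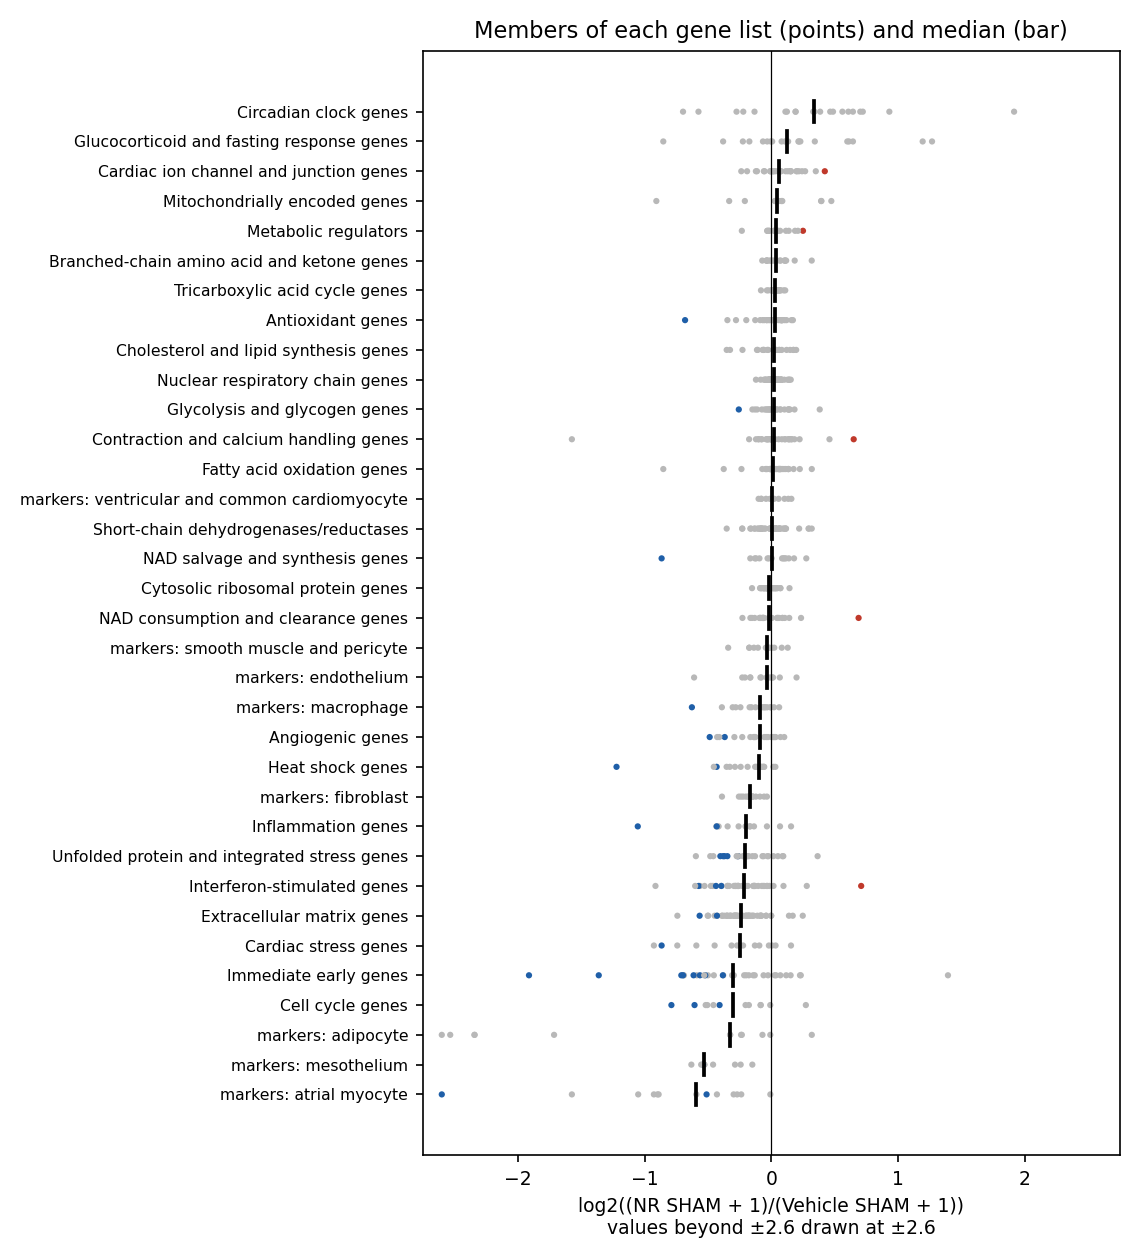
Effect of NR in sham hearts, log2((NR SHAM + 1)/(Vehicle SHAM + 1)), of each list member with a mean of at least 50, with the list median as a black bar; red and blue points had an unadjusted p below 0.05, higher and lower with NR, and values beyond 2.6 are drawn at 2.6. Metabolic lists gather close to 0, while early, interferon, matrix, atrial and mesothelium lists have medians from −0.22 to −0.59.

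Genes of NAD metabolism had list medians near 0, with single members further out. Of 15 salvage and synthesis genes with a mean of at least 50, 8 were positive and the median was 0.0031; Nmrk2, at −0.87, was the lowest and the only one at an unadjusted p below 0.05. With a minimum mean of 200 the median was −0.019. Nampt, the rate-limiting enzyme of salvage from nicotinamide, had authors' means of 10816 and 13100.5, an effect of 0.28 with an implied SE of 0.16 (unadjusted DESeq p 0.0765 in the authors' deposited table). Nmrk1, the NR kinase of most tissues, stood at 121 and 134 (0.14), and Nmnat1, the nuclear enzyme that completes NAD, at 1040.4 and 957 (−0.12). The nucleoside transporter Slc29a1 stood at 1707 and 1522 (−0.17). None of the 9 genes of the de novo route from tryptophan reached a mean of 50, and their summed level was 91.3 and 96.0.

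Among 26 genes that consume NAD or clear nicotinamide, 10 were positive and the median was −0.019. Bst1, a cell surface glycohydrolase related to Cd38, had authors' means of 44.7 and 72.7, an effect of 0.69 with an implied SE of 0.30 (unadjusted DESeq p 0.0202 in the authors' deposited table). The 7 sirtuins lay between −0.088 and 0.088. Parp9 and Parp12, which interferon also induces, stood at 592 and 505 (−0.23) and at 662 and 595 (−0.15). Nnmt, which methylates nicotinamide for excretion, had means of 36.5 and 26.3, below the minimum mean.

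Short-chain dehydrogenases/reductases, the enzyme family in the series title, use NAD or NADP to oxidise and reduce steroids, retinoids and lipids. Of 45 members with a mean of at least 50, 23 were positive and 22 negative, 0 had an unadjusted p below 0.05, and effects ran from −0.35 to 0.32 around a median of 0.0041. Dhrs7c, a muscle member of the sarcoplasmic reticulum, had authors' means of 3915 and 4023 (0.039, implied SE 0.14). Dhrs11 stood at 2915 and 3396 (0.22), Pecr, a peroxisomal enoyl reductase, at 244 and 300.4 (0.30), and Hsd17b12, of long-chain fatty acid elongation, at 824 and 735 (−0.17). The 12 Dhrs genes had a median of 0.036 and the 11 Hsd and retinol dehydrogenases of −0.082, with 9 negative.

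Fuel metabolism lay close to 0. Fatty acid oxidation genes had 27 positive of 39 (median 0.018), tricarboxylic acid cycle genes 22 of 26 (0.033), nuclear respiratory chain genes 50 of 72 (0.021) and glycolysis genes 15 of 27 (0.019). When both columns were scaled to the same sum, every effect shifted by −0.032, and the medians of fatty acid oxidation, respiratory chain and glycolysis genes, of NAD salvage, short-chain dehydrogenase, antioxidant, cholesterol and lipid synthesis, contraction and cardiomyocyte marker genes turned negative. The positive members were then 19 of 39 for fatty acid oxidation, 14 of 26 for the tricarboxylic acid cycle, 26 of 72 for the respiratory chain and 11 of 27 for glycolysis. Cpt1b, which admits fatty acids to the mitochondrion, had authors' means of 66.6 and 51.2 (−0.38, implied SE 0.29), and Pgam1, a glycolytic mutase, of 1023 and 856 (−0.26; unadjusted DESeq p 0.0489 in the authors' deposited table). The Cpt1b level was low beside Slc27a1 of the same list, at 5261 and 6150. Whether the Cpt1b count holds all reads of the gene was not tested, so its effect is uncertain. Among metabolic regulators, the nuclear receptor Esrrb stood at 1445 and 1719 (0.25) and the coactivator Ppargc1a at 3424 and 3899 (0.19). Of the 13 protein genes of the mitochondrial genome 10 were positive (median 0.047); mt-Co3 had means of 36734 and 51023 (0.47) and mt-Atp8 of 7097 and 3785 (−0.91). mt-Atp8 and mt-Atp6 overlap, so their reads may be split uncertainly.

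Antioxidant, amino acid, lipid synthesis and ribosomal lists also had medians near 0. Antioxidant genes had 18 positive of 30, with 1 at an unadjusted p below 0.05: Slc7a11, the cystine importer, had authors' means of 185 and 115 (−0.68; unadjusted DESeq p 0.0174 in the authors' deposited table). Branched-chain amino acid and ketone genes had 13 positive of 20 (median 0.035), cholesterol and lipid synthesis genes 12 of 22 (0.025) and cytosolic ribosomal protein genes 12 of 36 (−0.015). Bdh1, a ketone-oxidising dehydrogenase, stood at 3689 and 4603 (0.32). Some marker lists with few members at the minimum mean lay further from 0: red cell and platelet markers had 5 positive of 7 (median 0.16), and granulocyte and mast cell markers 3 negative of 4 (−0.34). The lymphocyte list had 1 such member, the immunoglobulin heavy chain gene Ighm (−0.81), and the lung epithelium and thymus list also 1, Cd1d1 (−0.46; unadjusted DESeq p 0.0478 in the authors' deposited table).

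The NR effect was also measured in TAC hearts, from 4 Vehicle TAC and 5 NR TAC libraries that the SHAM comparison does not use. Of the 12389 genes, 7457 (60.2%) had the same sign in both. Across genes the effects correlated with a Pearson r of 0.040 and a Spearman rho of 0.28. The extremes in SHAM had the opposite sign in TAC: Bmp10 at −7.55 and 6.67, and Alb at 2.16 and −11.1. Their weight in the Pearson r was not tested. Genes are not independent replicates, and all of them share the same libraries. Among the 237 genes with an unadjusted p below 0.05 in SHAM, 175 (73.8%) had the same sign in TAC. The difference of the NR effect, TAC minus SHAM, was tested with an approximate z from the implied errors over 18474 genes, and 0 passed the Benjamini-Hochberg adjustment (smallest adjusted p 1.0), with 224 at an unadjusted p below 0.05 (1.21%). No gene's NR effect was therefore shown to differ between sham and overloaded hearts.

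Of the 237 genes with an unadjusted p below 0.05 in SHAM, 14 also had one in TAC, where 301 of all 12389 genes did. Of these 14, 12 had the same sign. They were picked by that rule after their values were seen. Higher with NR in both were Ano10 (SHAM 0.30, TAC 0.47), Slc16a7, a monocarboxylate transporter (0.46 and 0.53), Pdp2, a phosphatase that activates pyruvate dehydrogenase (0.30 and 0.54), and 2 predicted genes. Lower in both were Colq (−0.54 and −0.86), Ckap4 (−0.48 and −0.61), Plcg2, a phospholipase of immune cells (−0.37 and −0.55), Tuba1b (−0.34 and −0.36), Col5a3, a collagen (−0.45 and −0.43), Mxra7 (−0.33 and −0.45) and Bok (−0.62 and −0.65). Colq had means of 278 and 191 in SHAM and of 251 and 137 in TAC. Timd4 and Bmp10 had opposite signs: Bmp10 stood at 67.1 in Vehicle TAC and 6913 in NR TAC, the reverse of its order in SHAM.

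By list, early genes had a SHAM median of −0.30 and a TAC median of 0.027 with the same sign in 12 of 32; Egr1 stood at −1.36 and −0.15, and the difference had an unadjusted p of 0.0138 by the approximate z, adjusted p 1.0. The unfolded protein response had a TAC median of −0.0012 and interferon genes of −0.074. Clock genes had the same sign in 18 of 21, with TAC medians of 0.42 for repressors and 0.43 for output factors. Glucocorticoid and fasting response genes had medians of 0.12 in SHAM and 0.41 in TAC. In TAC 18 of these 20 were positive, and 11 had the same sign in both. Collagens were negative in 15 of 15 in both (SHAM median −0.29, TAC −0.50), and cardiac stress genes had a TAC median of −0.47. Nmrk2 had effects of −0.87 in SHAM and −2.31 in TAC (implied SE in TAC 1.44), Shisa6 of 1.07 and 1.02 (0.80), and Kcnv2 of 0.42 and 0.46 (0.37). Their unadjusted DESeq p in TAC was 0.108, 0.205 and 0.211, so none reached 0.05 there. Atrial markers ran the opposite way, at −0.59 in SHAM and 1.58 in TAC, and adipocyte markers at −0.32 and 0.17. Fibroblast markers were negative in 15 of 15 in SHAM and positive in 10 of 15 in TAC (medians −0.17 and 0.10), whereas the collagens were negative in both. The 5 hepatocyte markers had medians of 0.071 and −2.13, with Alb at 25364 in Vehicle TAC and 10.7 in NR TAC. None of these list differences was tested.

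**Figure D5:**
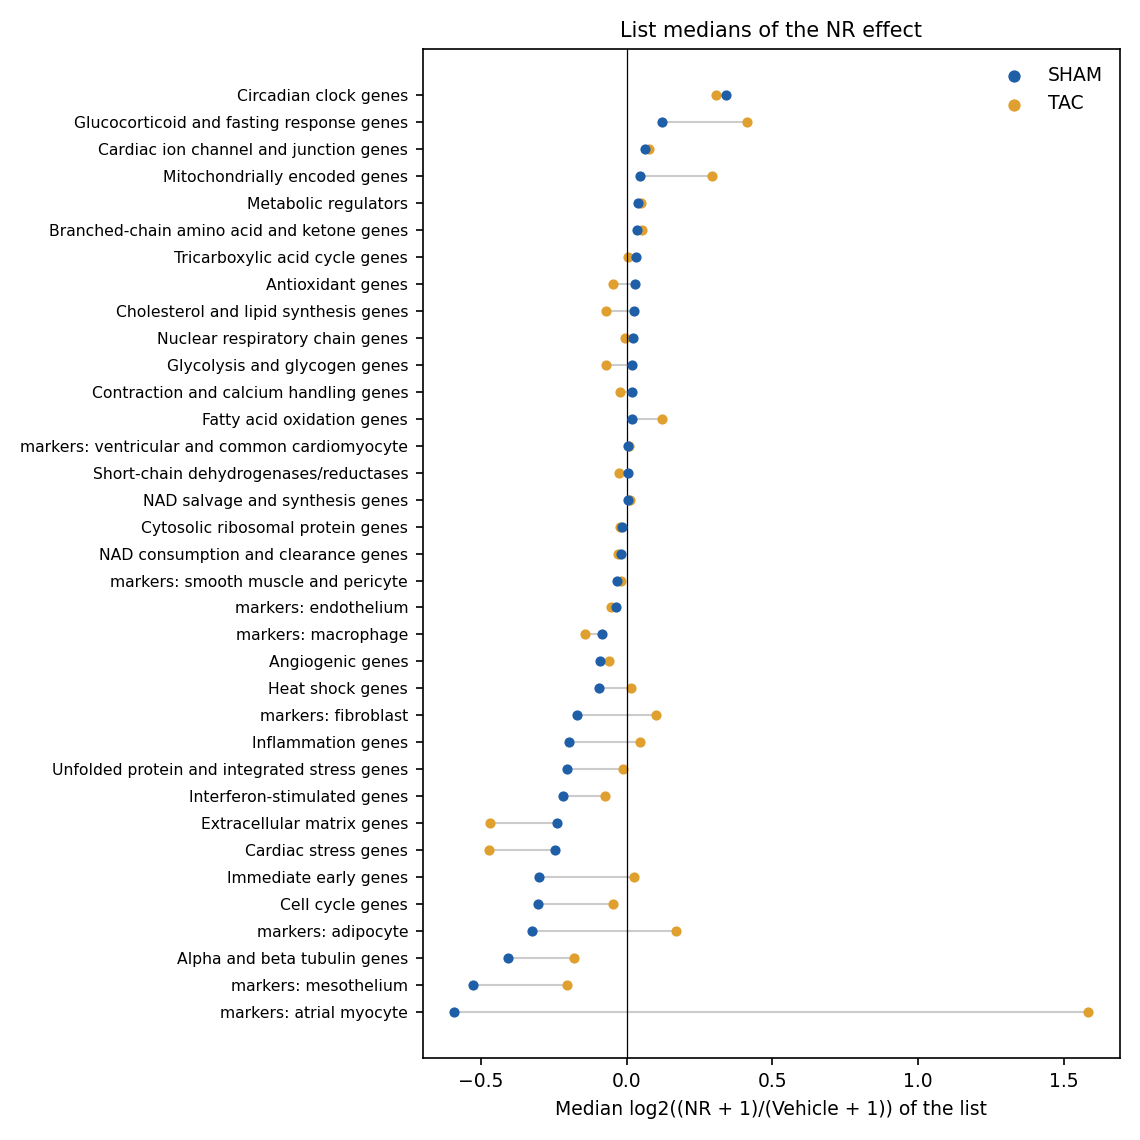
Median NR effect, log2((NR + 1)/(Vehicle + 1)), of each list in SHAM (blue) and TAC (orange) hearts, for members with a mean of at least 50 in SHAM. Clock and matrix lists lie on the same side in both, while the atrial marker list stands at −0.59 in SHAM and 1.58 in TAC.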

How the data were processed

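Total RNA from 30 mg of mouse heart was extracted with the Qiagen RNeasy kit and, per the labels' protocols, sequenced on a BGISEQ-500. TopHat, HTSeq and DESeq on GRCm38 are named in the submitters' processing notes, without versions or settings. The 4 deposited tables hold 1 pair of groups each. Their signal columns are the authors' group means of normalized counts, per the file headers and the values, so no SD, library value or library depth is given and no counting interval could be formed. The deposited fold adds 1 to both means before dividing them, and its log2 is deposited beside it; recomputing the log2 column gave the same values within rounding error. Each deposited p-value comes from the authors' DESeq test, and their adjusted p is reproducible by Benjamini-Hochberg over all rows (largest difference 0). Adding 1 shrinks the effect of genes with low means. Whether reads were counted by strand is not given in the sources used here, so overlapping and antisense genes are uncertain.

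Libraries were grouped by their labels. The labels do not say that each is its own animal; the p-values then speak only of the variation among these libraries. A gene was called at an adjusted p below 0.05. The tests planned for counts per library need library values and were replaced by the deposited test. The implied standard error is the effect over the normal quantile of its p. The difference of the NR effect, TAC minus SHAM, was an approximate z of 2 effects with these errors; 1085 genes had no error that could be formed. It was tested on simulated data. Effects were computed with Python 3.11.15, pandas 2.3.3 and scipy 1.17.1.

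The genes compared and the 42 gene lists were chosen with earlier results of these data known, and 8 further families after the values were seen, so counts over lists are descriptions. Named genes were, among genes reaching the minimum mean of 50 whose symbol is no predicted model, the 8 smallest p and 8 largest effects in each direction, up to 6 members of each list by p, and Nmrk1, Nmrk2, Nampt, Nnmt, Nppa, Nppb, Myh6, Myh7 and Dhrs7c always. Others are marked in the text as named after their values were seen. Gene positions are from GENCODE and promoters from RefSeq, both for GRCm38. Alternatives changed the minimum mean, the thresholds, the pseudocount of 1 to 10, and the scaling. Values of a few single genes are not reported here.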

Additional observations from a re-analysis of the deposited data

How the results depend on the processing

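No gene was called under an adjusted p below 0.1, or when the adjustment ran over genes with a mean of at least 10 (smallest adjusted p 0.817) or 50 (1). The 237 genes at an unadjusted p below 0.05 became 374 with no minimum mean, 299 at a mean of at least 10, 156 at a mean of at least 200 and 47 at p below 0.01. The 33 genes past a 2-fold difference became 138 at a mean of at least 10 and 16 at a mean of at least 200; a pseudocount of 10 gave 30 and scaling to the same sum 35. The minimum mean changes how many genes enter; the p threshold, the pseudocount and the scaling act on the same 12389 genes. Of the list medians, 267 values stayed within the median implied SE of the list's members from their main value and 2 did not: adipocyte markers were at −1.02 and hepatocyte markers at 1.28 with a minimum mean of 10. That margin is an error of single genes and is wide for a median. Medians near 0 turned sign within it, such as respiratory chain genes, from 0.021 to −0.012 with scaling to the same sum. Scaling to the same sum turned the sign of 1 of 247 named genes. Testing TAC minus SHAM gave 0 calls with genes of a mean of at least 50 in both tables and at an adjusted p below 0.1. No paired analysis was possible because the tables hold group means only; for the same reason no library could be left out. With 3 and 4 libraries per group, the median implied error was 0.114 in the highest level bin and 0.265 in the lowest bin above the minimum mean. Small effects are therefore below what these data resolve singly. Single genes had far larger errors, such as Cyp26b1 (effect 1.78, implied SE 1.76), so some large effects are not resolved either.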

Other observations

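A few further genes stood out and were chosen after their values were seen. Cirbp, a cold-inducible RNA-binding protein, had authors' means of 986 in Vehicle SHAM and 1356 in NR SHAM (effect 0.46), and its relative Rbm3 of 1102 and 1251 (0.18). Luc7l and Luc7l2, which bind the U1 splicing particle, stood at 677 and 823 (0.28) and at 3697 and 4402 (0.25); Luc7l3 stood at 1548 and 1422. Of the SR splicing factors, Srsf4 stood at 169.6 and 222 (0.38), and the median of all 10 was −0.041. Annexins had 7 negative of 8, with Anxa1 at 787 and 616 and Anxa3 at 596 and 490.1; S100a10, which binds Anxa2, stood at 974 and 757 (−0.36).

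The genes at an unadjusted p below 0.05 differed in structure by direction. The 81 on the higher side spanned a median of 45.0 kb of the genome and 75.3% were protein-coding; the 156 on the lower side spanned 16.2 kb and 96.8% were protein-coding; all 12389 genes had 24.5 kb and 95.0%. Median GC of the longest annotated transcript was 47.5% on the higher side, 52.4% on the lower and 49.6% for all. Across 12379 annotated genes the effect had a Spearman rho of 0.11 with log10 gene span, −0.13 with GC and 0.15 with log10 mean, which describe genes measured in the same libraries and not replicates.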
